A study of Mus musculus with 6 samples.

Results

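The proteasome is the barrel-shaped protease that degrades ubiquitin-tagged proteins, and its genes were followed here in mouse Lin-CD117+ cells kept in normal culture or given glycyrrhizic acid (GA), a triterpenoid saponin of licorice root. The members were the genes of the table whose symbol begins with *Psma*, *Psmb*, *Psmc*, *Psmd*, *Psme*, *Psmf* or *Psmg* and a number, without *Psmb8*, *Psmb9* and *Psmb10*, which encode the inducible immunoproteasome subunits. The rule used no measured value and took 48 of 18121 genes. Their roles were 8 alpha ring genes, 8 beta ring genes, 6 ATPase ring genes, 3 genes of the non-ATPase base, 8 lid genes, 3 base chaperones, 4 core chaperones, 5 activators and 1 inhibitor. The remaining 2, *Psmc3ip* and *Psme3ip1*, encode proteins named after a partner and are not proteasome subunits.

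The Ctrl group held 3 libraries of cells in normal culture and the GA group held 3 libraries of cells treated with GA for 24 h. By the study's methods the cells came from the bone marrow of C57BL/6 mice aged 8 weeks, were depleted of lineage-positive cells and were enriched for CD117, the *Kit* receptor. By the labels the groups differ only in GA, whose concentration in this experiment is not given. Bulk RNA sequencing values were given as FPKM, fragments per kilobase of transcript scaled to the mapped fragments of the library, and the depth of the libraries is unknown. Whether the replicates are separate animals or separate cultures is not stated, so each p below measures the spread between these libraries, which may be technical.

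The core particle is a stack of alpha and beta rings, and the beta ring carries the catalytic sites inside the barrel. The regulatory particle caps the core, its lid and base receive and deubiquitinate the substrate, and its ATPase ring unfolds the substrate and feeds it into the core. Dedicated chaperones assemble the rings, and other activators can dock on the core in place of the regulatory particle. Cells make the subunits in balanced amounts, and the transcription factor encoded by *Nfe2l1* raises proteasome genes when the activity of the proteasome is low. Blood stem cells are known for a low rate of protein synthesis and for their sensitivity to disturbed protein quality control.

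GA replicate 1 differed from the other 5 libraries over the whole table. Library sums were 508672 to 511802 FPKM in Ctrl and 515444 to 555449 FPKM in GA, highest in GA replicate 1, which also lay at 14.97 on the first principal component of the tested genes (39.6% of the variance) where the other 5 libraries lay between -5.82 and 0.25. Across 10761 genes with a known length, Spearman's rho between transcript length and a library's deviation from the Ctrl mean was -0.59, -0.31 and -0.18 in the GA libraries 1 to 3 and -0.06 to 0.07 in Ctrl, so short transcripts read higher in GA libraries. Of the marker lists, the 8 neutrophil genes all had a higher GA mean, and their summed level was 1495 to 1687 FPKM in Ctrl and 1844 to 1945 FPKM in GA. Against 11.6% of all tested genes, the groups separated upward for 4 of the 8 (*Elane*, *Prtn3*, *S100a8* and *S100a9*). They overlapped for *Mpo*, *Camp*, *Ltf* and *Ngp*. The largest rises in mean FPKM were in *S100a9* (410 in Ctrl, 522 under GA) and *S100a8* (262 and 350). The paper reports both genes as upregulated by GA in Lin-CD117+ cells, and *S100a8* as reduced by GA in blood mononuclear cells of aged mice. Here neither passed (limma adjusted p = 0.135 for both). The log2 fold changes of *S100a8* and *S100a9* were 0.41 and 0.35, and 0.25 and 0.19 with the length trend removed. Without GA replicate 1 they were 0.34 and 0.36, and both genes were called, against 0.495% of all tested genes called higher. In the stem and progenitor list 6 of the 9 tested genes rose in GA and 3 fell. Only *Erg* separated upward (log2 fold change 0.14) and only *Tal1* downward (-0.11), while *Procr* overlapped at 0.23. *Tal1*, *Gata2* and *Meis1*, with Ctrl means of 91.2, 53.0 and 48.6 FPKM, supplied most of the summed level, so it says little about the lower genes. The sum of the 10 stem and progenitor markers was 293 to 304 FPKM in Ctrl and 288 to 304 FPKM in GA. That of the 9 megakaryocyte markers was 21206 to 21875 and 19160 to 26371 FPKM, while 6 of the 9 genes had a negative log2 fold change (median -0.17 over the 9). Of the 9, 5 lay below Ctrl in all GA libraries (*Thbs1*, *Tubb1*, *Itgb3*, *Itga2b* and *Vwf*), against 8.29% of all tested genes. All 9 were lower without GA replicate 1, where limma called 4 of them, against 0.550% of all tested genes called lower. All 9 were also lower with the length trend removed. In Ctrl *Pf4*, *Ppbp* and *Itga2b* averaged 13331, 3914 and 1065 FPKM, against 18.2 for *Kit*, 5.60 for *Procr* and 2.44 for *Hlf*. The proteasome values below are averages over all cells of a sample and cannot be assigned to stem cells. Monocyte markers summed to 382 to 467 and 443 to 501 FPKM, erythroid markers to 1142 to 1176 and 971 to 1444 FPKM, and stroma markers to 95.6 to 101 and 82.9 to 98.0 FPKM, with *Slc4a1* of the erythroid list at 0 in at least 1 library. The part of these shifts in the proteasome values was not tested gene by gene, but each main result is also given without GA replicate 1 and with the length trend of each library removed.

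All alpha, beta, ATPase, base and lid genes other than the tissue-restricted *Psma8* and *Psmb11* were abundant in both groups. These 31 genes had Ctrl means between 53.6 and 192 FPKM, and the lowest of them ranked at the 85.9th percentile of the tested genes. Their coefficient of variation over the 3 Ctrl libraries was 0.36% to 6.40%, with a median of 2.22%, and the difference between GA and Ctrl means ran from -0.93% to 18.4%. FPKM divides by transcript length, so levels were set side by side between genes. The annotation behind those lengths is not stated and a length bias of a library would remain, so the orders and spans are approximate. In Ctrl the alpha ring genes were ordered *Psma2*, *Psma7*, *Psma6*, *Psma4*, *Psma3*, *Psma1* and *Psma5* from high to low, a 1.78-fold span, and 2 of the 6 neighbouring pairs overlapped in their library values. The beta ring order was *Psmb4*, *Psmb1*, *Psmb2*, *Psmb3*, *Psmb6*, *Psmb5* and *Psmb7* with a 1.85-fold span and 3 of 6 neighbouring pairs overlapping, and the ATPase ring order *Psmc3*, *Psmc1*, *Psmc4*, *Psmc2*, *Psmc5* and *Psmc6* with a 1.93-fold span and 0 of 5 overlapping. The lid spanned 3.59-fold from *Psmd8* to *Psmd12*, since *Psmd8* alone was far above the rest. Core chaperone genes were lower, at 13.7 to 26.0 FPKM in Ctrl.

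**Figure D1:**
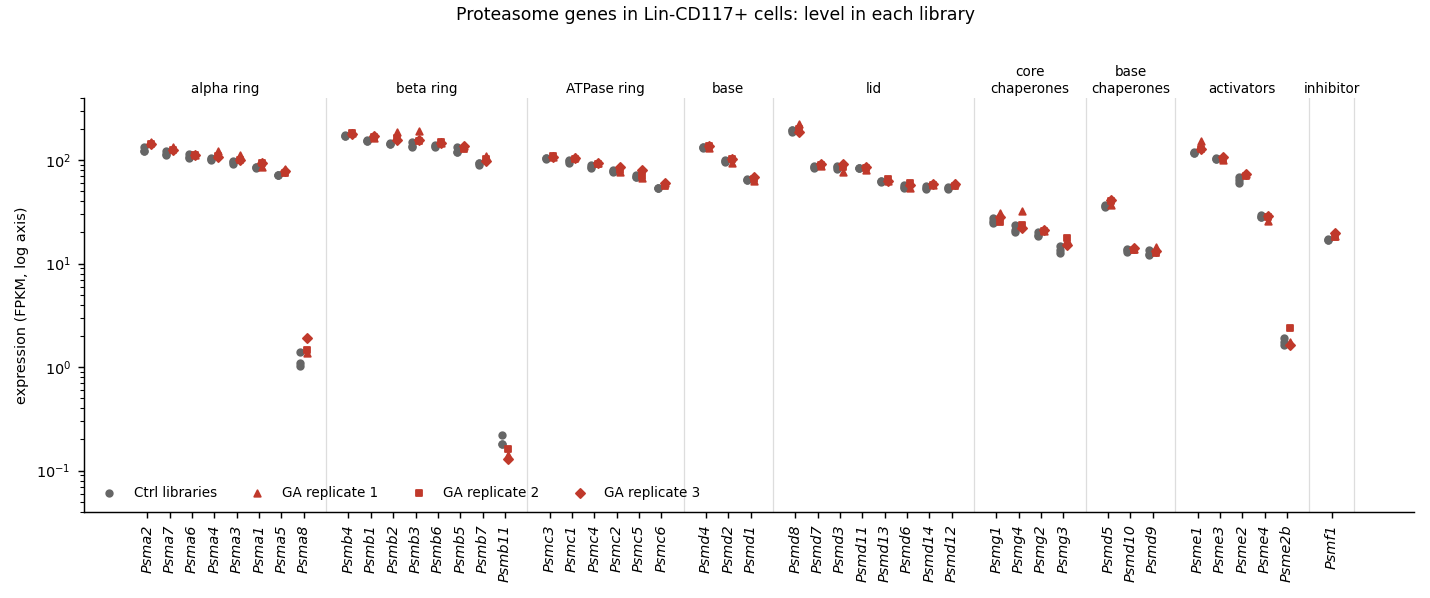
Level of 46 proteasome genes in each library (FPKM, log axis), grouped by role, with grey circles for the 3 Ctrl libraries and red triangle, square and diamond for GA replicates 1, 2 and 3. The ring, base and lid genes lie between 53.6 and 192 FPKM in Ctrl apart from *Psma8* and *Psmb11*, and the libraries of a gene lie close together on this scale.

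Proteasome genes were mostly higher in GA by small amounts, and no single gene passed the test. Of the 47 members that reached an average of 1 FPKM and were tested, 42 were higher and 5 lower in GA, at a median log2 fold change of 0.10 on the log2(FPKM + 1) scale. Over all 10912 tested genes 54.8% were higher and the median was 0.01. By limma with Benjamini-Hochberg adjustment over all tested genes, 0 of 47 members and 0 of 10912 genes (0%) had an adjusted p under 0.05, the smallest adjusted p was 0.214 among the members and 0.135 over all genes, and 1474 genes had an unadjusted p under 0.05. At an unadjusted p under 0.05, 22 members (46.8%) were higher and 0 lower, against 8.88% of all tested genes higher and 4.63% lower. That count of 22 was 10 with TMM-type scaling (6.15% of all tested genes), 6 with libraries rescaled to one sum (2.70%), 14 without the mean-variance trend (7.41%) and 24 without GA replicate 1 (15.0%). The 3 GA values were all above the 3 Ctrl values for 24 members (51.1%), against 11.6% of all tested genes, and below for 0 members, against 8.29%. The 5 members with a lower GA mean were *Psmd3*, *Psmd11*, *Psme3*, *Psme4* and *Psme3ip1*, with log2 fold changes from -0.06 to -0.00069. In bulk RNA, a different mixture of cells and a different amount of transcript per cell cannot be told apart.

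The summed level of all 48 members was 3645 ± 24.8 in Ctrl and 3916 ± 75.1 FPKM under GA (SD, n = 3 each). As a share of the library sum this was 0.711%, 0.716% and 0.715% in the Ctrl libraries and 0.720%, 0.734% and 0.755% in the GA libraries. All 3 GA shares were above all 3 Ctrl shares, and GA replicate 1 was the nearest of them to Ctrl although it had the highest sum.

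In the deposited values the core genes differed more between GA and Ctrl than the regulatory particle genes did. All 15 tested core genes had a higher GA mean, at a median log2 fold change of 0.13, while 15 of the 17 ATPase, base and lid genes did, at a median of 0.05. An unadjusted p under 0.05 was reached by 11 of 15 core genes and 4 of 17 regulatory particle genes, and the libraries separated fully for 11 and 6 of them, where 8.88% and 11.6% of all tested genes did so in this direction. Summed core FPKM divided by summed regulatory particle FPKM was 1.15, 1.14 and 1.15 in the Ctrl libraries and 1.28, 1.20 and 1.18 in the GA libraries. All 3 GA ratios lay above all 3 Ctrl ratios, with GA replicate 1 the farthest away. No p is given for the ratio or for the gap between the groups of genes, because genes of a library are not replicates and the genes were compared with earlier results in view.

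In the alpha ring, which gates entry to the core, all 8 genes had a higher GA mean and the ring summed to 708 ± 15.6 in Ctrl and 774 ± 20.3 FPKM under GA (SD, n = 3 each). *Psma2*, an alpha ring subunit, had 121.84, 123.29 and 135.04 FPKM in Ctrl and 148.94, 143.64 and 144.25 FPKM in GA. The 3 GA libraries lay together above all Ctrl libraries, the highest Ctrl library being replicate 3, and the GA mean was 14.9% higher. Its log2 fold change was 0.20 ± 0.05 (SE, limma adjusted p = 0.214), 0.18 without GA replicate 1 and 0.19 with the length trend removed. *Psma5*, another alpha ring subunit, had 71.74, 71.21 and 71.08 FPKM in Ctrl and 82.60, 75.75 and 77.78 FPKM in GA. The Ctrl libraries were within 1 FPKM of one another and all GA libraries were above them, with a log2 fold change of 0.14 ± 0.05 (SE, limma adjusted p = 0.256) that was 0.06 once the length trend was removed. *Psma8*, the alpha subunit of testis proteasomes, was near the floor of the tested genes, with 1.02, 1.10 and 1.40 FPKM in Ctrl and 1.38, 1.45 and 1.92 in GA. Its groups overlapped through Ctrl replicate 3, and the log2 fold change of 0.25 ± 0.11 had a limma adjusted p of 0.363. The remaining 5 alpha genes differed by 0.06 to 0.14 on the log2 scale, and for *Psma1* and *Psma6* the groups overlapped.

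The beta ring summed to 967 ± 9.86 in Ctrl and 1071 ± 43.6 FPKM under GA (SD, n = 3 each), with all 7 tested genes higher in GA. *Psmb5* encodes the subunit with chymotrypsin-like activity, the one that the drug bortezomib blocks, and it had 134.33, 120.30 and 120.64 FPKM in Ctrl and 138.34, 128.34 and 136.06 FPKM in GA. Ctrl replicate 1 lay within the GA values, so the groups overlapped, and the log2 fold change was 0.10 with a 95% interval of -0.02 to 0.23 (limma adjusted p = 0.459). *Psmb6*, which carries the caspase-like activity, had 139.59, 134.04 and 136.18 FPKM in Ctrl and 145.93, 148.91 and 147.02 FPKM in GA. Here the groups did not overlap and each was tight, with a log2 fold change of 0.11 ± 0.04 (SE, limma adjusted p = 0.302). *Psmb7*, which carries the trypsin-like activity, had 94.12, 90.67 and 94.73 FPKM in Ctrl and 110.73, 102.54 and 97.45 FPKM in GA. All GA libraries were above Ctrl, GA replicate 3 only narrowly, and the log2 fold change was 0.15 ± 0.05 (SE, limma adjusted p = 0.279). With the length trend removed the 3 catalytic genes had log2 fold changes of -0.01, -0.01 and 0.06, so that *Psmb5* and *Psmb6* lost their positive sign.

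The largest fold changes of the tested beta genes were in 2 structural subunits, and GA replicate 1 carried much of them. *Psmb3* had 138.37, 135.45 and 148.34 FPKM in Ctrl and 190.46, 151.68 and 157.79 FPKM in GA. *Psmb2* had 144.75, 146.61 and 142.50 FPKM in Ctrl and 189.20, 164.97 and 154.87 FPKM in GA. For both genes all GA libraries lay above Ctrl and GA replicate 1 was far above the other 2. The log2 fold change of *Psmb3* was 0.24 ± 0.08 (SE, limma adjusted p = 0.268) and 0.14 without GA replicate 1. That of *Psmb2* was 0.22 ± 0.07 (SE, limma adjusted p = 0.244) and 0.14 without that library. With the length trend removed both were 0.11. The 2 most abundant beta genes gave smaller but separated differences, again in structural subunits. *Psmb4* had 171.94, 173.14 and 172.26 FPKM in Ctrl and 184.01, 184.54 and 178.92 FPKM in GA, a log2 fold change of 0.08 (limma adjusted p = 0.419) that was -0.0046 with the length trend removed. *Psmb1* had 152.24, 155.59 and 153.16 FPKM in Ctrl and 162.56, 165.71 and 172.76 FPKM in GA, a log2 fold change of 0.12 (limma adjusted p = 0.284). *Psmb1* was highest in GA replicate 3 and kept a log2 fold change of 0.14 without GA replicate 1 and 0.07 with the length trend removed. *Psmb11*, the catalytic subunit of thymus cortical cells, was listed at 0.13 to 0.22 FPKM over the libraries and was not tested.

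**Figure D2:**
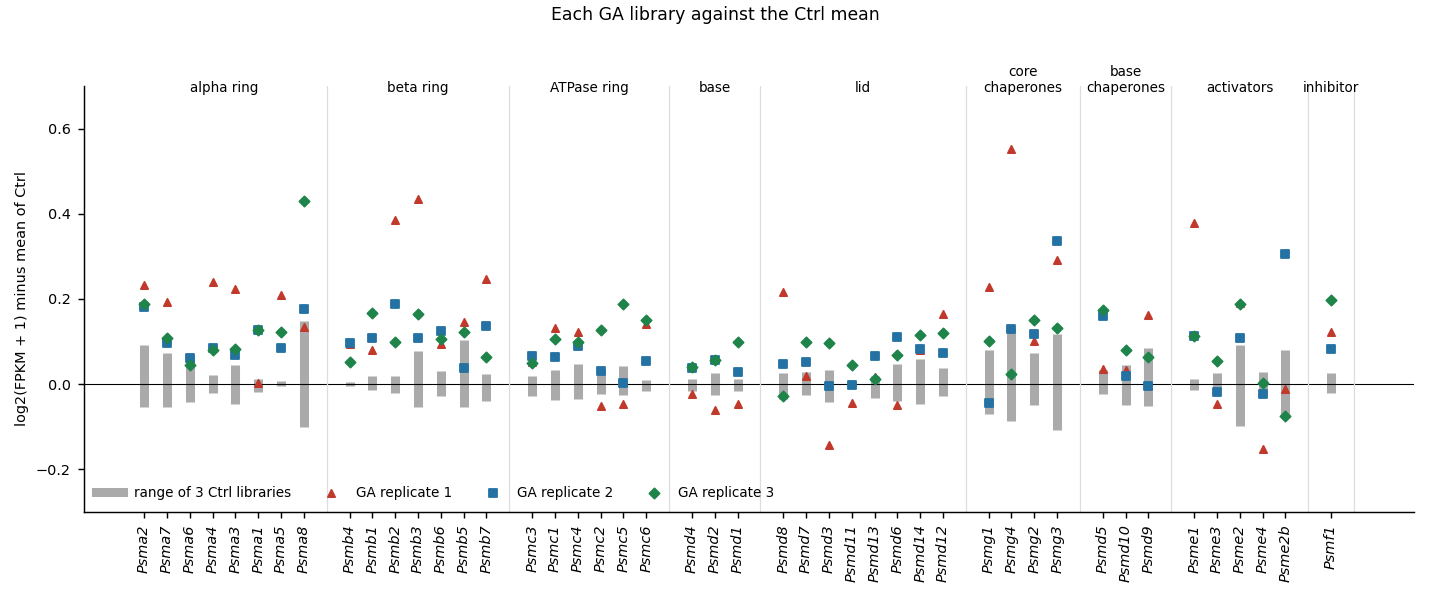
Difference between each GA library and the Ctrl mean on the log2(FPKM + 1) scale for 45 tested proteasome genes, with grey bars for the range of the 3 Ctrl libraries and red triangles, blue squares and green diamonds for GA replicates 1, 2 and 3. In GA replicate 1 most alpha and beta genes lie high while the base genes lie below the Ctrl range, and in GA replicates 2 and 3 the genes lie closer together.

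In GA replicate 1 many regulatory particle genes lay below Ctrl, as did many genes of the whole table. Of the 17 regulatory particle genes, 7 lay above all Ctrl libraries and 8 below all of them in GA replicate 1, against 13 above in GA replicate 2, 15 above in GA replicate 3 and 0 below in both. Of all tested genes, 27.5% lay above and 44.9% below all Ctrl libraries in GA replicate 1. For GA replicate 2 these shares were 38.4% and 23.1%, and for GA replicate 3 they were 45.4% and 21.6%. The 8 of 17 below Ctrl in GA replicate 1 were near the share of all genes. The regulatory particle's median deviation from the Ctrl mean was 0.02, 0.06 and 0.10 in GA replicates 1, 2 and 3, while that of the core was 0.19, 0.11 and 0.11 and that of all tested genes -0.04, 0.03 and 0.04. The core was thus above the regulatory particle in each GA library, by the widest margin in GA replicate 1. None of the 15 core genes lay below all Ctrl libraries in any GA library.

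All 6 ATPase ring genes had a higher GA mean, at a median log2 fold change of 0.08, and the ring summed to 492 ± 5.62 in Ctrl and 519 ± 11.8 FPKM under GA (SD, n = 3 each). *Psmc6*, an ATPase ring subunit, had 53.39, 54.39 and 54.26 FPKM in Ctrl and 59.66, 56.16 and 60.07 FPKM in GA. *Psmc4*, its fellow in the ring, had 86.22, 84.78 and 89.94 FPKM in Ctrl and 94.81, 92.51 and 93.22 FPKM in GA. Both genes separated, with GA replicate 2 nearest to Ctrl. Their log2 fold changes were 0.12 ± 0.04 for *Psmc6* and 0.10 ± 0.04 for *Psmc4* (SE, limma adjusted p = 0.311 and 0.331), and 0.09 and 0.04 with the length trend removed. *Psmc1* and *Psmc3* also separated, while *Psmc2* and *Psmc5* overlapped, GA replicate 1 being below all Ctrl libraries.

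In the base and lid the differences were small. The non-ATPase base genes *Psmd1* and *Psmd2*, scaffolds of the base, and *Psmd4*, a ubiquitin receptor, were singled out after their values were seen. *Psmd4* had 130.55, 132.56 and 133.21 FPKM in Ctrl and 130.02, 135.63 and 135.91 FPKM in GA. *Psmd2* had 98.43, 100.26 and 96.82 FPKM in Ctrl and 94.36, 102.50 and 102.55 FPKM in GA. *Psmd1* had 65.00, 65.30 and 63.98 FPKM in Ctrl and 62.64, 66.09 and 69.42 FPKM in GA. In all 3 genes GA replicate 1 was the lowest of the 6 libraries and the other GA libraries were the highest, so the groups overlapped and the log2 fold changes were 0.02 to 0.03. Of the 8 lid genes 6 had a higher GA mean, and the lid summed to 673 ± 8.14 in Ctrl and 699 ± 4.12 FPKM under GA (SD, n = 3 each). *Psmd12*, a lid scaffold, had 53.23, 55.07 and 52.60 FPKM in Ctrl and 60.18, 56.47 and 58.33 FPKM in GA. *Psmd14*, the deubiquitinase of the lid, had 52.76, 56.80 and 54.07 FPKM in Ctrl and 57.72, 57.83 and 59.13 FPKM in GA. These were the only ones of the 8 lid genes matched by symbol whose groups separated. Their log2 fold changes were 0.12 ± 0.04 and 0.09 ± 0.04 (SE, limma adjusted p = 0.302 and 0.403), and 0.08 and 0.03 with the length trend removed. *Psmd8*, the most abundant member, had 193.88, 195.82 and 187.66 FPKM in Ctrl and 223.78, 198.89 and 188.61 FPKM in GA. Its GA replicate 3 lay within Ctrl, and its log2 fold change of 0.08 was 0.0094 without GA replicate 1 and 0.02 with the length trend removed.

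The genes that assemble the proteasome were low and gave some of the larger fold changes. All 4 core chaperone genes had a higher GA mean, at a median log2 fold change of 0.18 that was 0.11 without GA replicate 1 and 0.05 with the length trend removed, and they summed to 80.5 ± 4.08 in Ctrl and 91.3 ± 7.84 FPKM under GA (SD, n = 3 each). *Psmg3*, which helps to build the alpha ring, had 12.62, 14.93 and 13.57 FPKM in Ctrl and 16.97, 17.53 and 15.09 FPKM in GA. All GA libraries were above Ctrl, GA replicate 3 barely above Ctrl replicate 2, and the log2 fold change was 0.25 ± 0.08 (SE, limma adjusted p = 0.242), 0.23 without GA replicate 1 and 0.13 with the length trend removed. *Psmg4*, its partner and the shortest annotated transcript of the members, was singled out after its values were seen, and had 20.29, 23.82 and 20.92 FPKM in Ctrl and 32.20, 23.77 and 22.00 FPKM in GA. Only GA replicate 1 was above all Ctrl libraries, and the log2 fold change of 0.24 ± 0.12 (SE, limma adjusted p = 0.434) was 0.08 without it. *Psmg2* separated at a log2 fold change of 0.12, which was 0.03 with the length trend removed. *Psmg1* overlapped at 0.10, which was 0.03 without GA replicate 1 and -0.0014 with the length trend removed. Of the 3 base chaperones, *Psmd5* had 37.11, 36.05 and 35.65 FPKM in Ctrl and 37.21, 40.66 and 41.02 FPKM in GA. GA replicate 1 exceeded Ctrl replicate 1 only slightly, and the log2 fold change of 0.12 ± 0.05 (SE, limma adjusted p = 0.333) was 0.17 without GA replicate 1 (adjusted p = 0.0754, the smallest of any member in that fit) and 0.15 with the length trend removed.

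Among the activators, the genes of the interferon-inducible activator ring had higher GA values, and those of the nuclear activators were near their Ctrl values. *Psme1* had 118.93, 118.06 and 116.77 FPKM in Ctrl and 153.47, 127.65 and 127.59 FPKM in GA. *Psme2*, its partner in the ring, had 60.13, 64.70 and 68.68 FPKM in Ctrl and 73.63, 69.52 and 73.50 FPKM in GA. Both separated, *Psme2* narrowly, and GA replicate 1 was far the highest for *Psme1*. The log2 fold change of *Psme1* was 0.20 ± 0.07 (SE, limma adjusted p = 0.273) and 0.11 without GA replicate 1, and that of *Psme2* was 0.16 ± 0.06 (SE, limma adjusted p = 0.271) and 0.15. With the length trend removed they were 0.11 and 0.05. *Psme3*, whose product forms a nuclear activator ring, and *Psme4*, which encodes a large nuclear activator and is the longest annotated transcript here, had log2 fold changes of -0.0032 and -0.06, with overlapping groups. *Psme2b*, a close copy of *Psme2* with which reads may be shared, had 1.92, 1.63 and 1.74 FPKM in Ctrl and 1.74, 2.41 and 1.62 FPKM in GA. Only GA replicate 2 was above Ctrl, and the groups overlapped. The inhibitor gene *Psmf1*, singled out after its values were seen, had 16.78, 17.38 and 16.96 FPKM in Ctrl and 18.64, 18.09 and 19.69 FPKM in GA. It separated with a log2 fold change of 0.13 ± 0.05 (SE, limma adjusted p = 0.312) and 0.15 with the length trend removed. *Psmc3ip*, a recombination cofactor that entered the set by its symbol, had 4.37, 4.86 and 4.34 FPKM in Ctrl and 6.03, 5.65 and 5.37 FPKM in GA, a separated log2 fold change of 0.28 (limma adjusted p = 0.221).

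The differences followed transcript length. The annotated lengths had a median of 1165 nt for the tested core genes and 1636 nt for the regulatory particle genes. Across the 47 tested members Spearman's rho between length and log2 fold change was -0.49, and across 10761 tested genes it was -0.51, a description of genes that share the same 6 libraries. All 24 members of 514.5 to 1440 nt had a higher GA mean, at a median log2 fold change of 0.12, and 18 of the 23 members of 1512 to 6491 nt did, with a median of 0.07. After a smooth trend on length was removed from each library, 29 members were higher and 18 lower (median 0.03), beside 51.3% of all genes higher and a median of 0.00. The core then had 11 of 15 genes higher with a median of 0.06 and the regulatory particle 9 of 17 with a median of 0.00. In GA replicates 1, 2 and 3 the core median was then 0.09, 0.02 and 0.05 and the regulatory particle median 0.00, 0.01 and 0.04. The core stayed above the regulatory particle in each GA library, by less than before in GA replicates 1 and 2 but not in GA replicate 3. An unadjusted p under 0.05 was then reached by 5 members, all higher, against 4.16% of all genes higher and 4.93% lower. They were *Psma2* (0.19), *Psmd5* (0.15), *Psmb2* (0.11), *Psmf1* (0.15) and *Psmc3ip* (0.20), with log2 fold changes in parentheses, and the smallest adjusted p among members was 0.352 by limma.

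**Figure D3:**
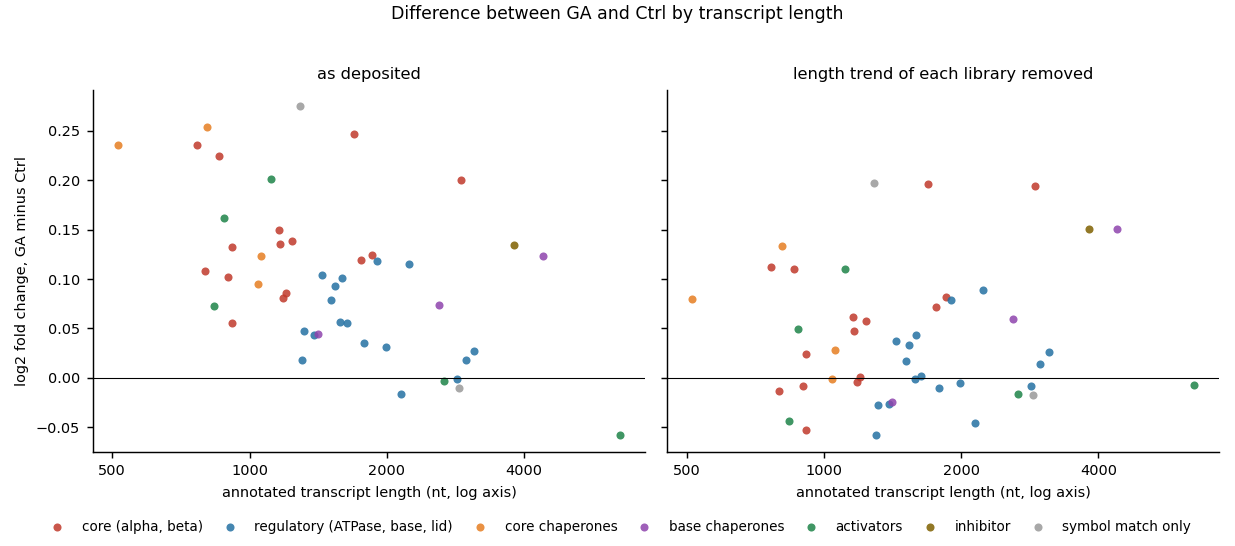
Log2 fold change between GA and Ctrl of the 47 tested members against annotated transcript length (nt, log axis), as deposited on the left and with each library's length trend removed on the right, coloured by role. On the left short transcripts lie higher (rho -0.49), and on the right rho is 0.02 and the members lie around a median of 0.03.

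Leaving out GA replicate 1 left most members higher and narrowed the gap between core and regulatory particle. Without it 45 of 47 members were higher, beside 64.8% of all tested genes, at a median log2 fold change of 0.09. The core median was then 0.10 with 15 of 15 genes higher, and the regulatory particle median was 0.07 with 17 of 17 higher. At an adjusted p under 0.05 that limma fit called 0.495% of all genes as higher, 0.550% as lower and 0 of the 47 members, the smallest adjusted p of a member being 0.0754. With GA replicate 1 left out and the length trend removed as well, 35 members were higher and 12 lower beside 52.8% of all genes higher, and the medians were 0.04 for the core and 0.03 for the regulatory particle. That fit called 0.130% of genes higher and 0.985% lower, and again 0 members. Rescaling each library to the same FPKM sum moved the median of all genes to -0.04 and left 31 members higher and 16 lower, with a core median of 0.07 (14 of 15 higher) and a regulatory particle median of -0.01 (6 of 17 higher).

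**Figure D4:**
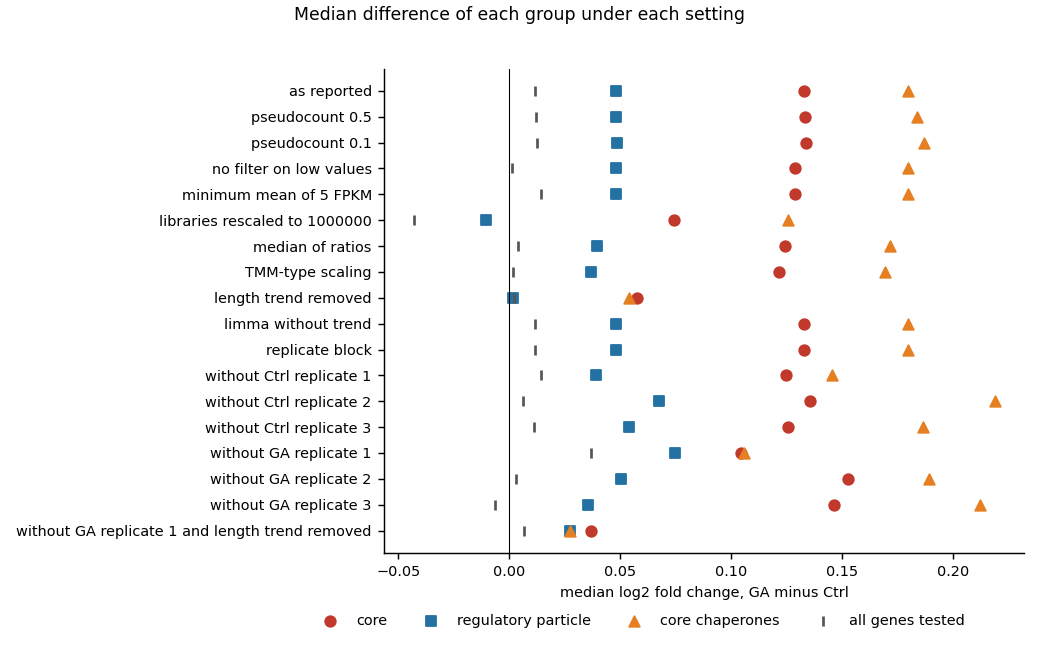
Median log2 fold change (GA minus Ctrl) of the core (red circles), the regulatory particle (blue squares), the core chaperones (orange triangles) and all tested genes (grey ticks) under each processing setting. The core lies above the regulatory particle in every setting drawn, 0.13 against 0.05 as reported and 0.04 against 0.03 at the narrowest, without GA replicate 1 and with the length trend removed.

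The neighbouring genes outside the set gave a mixed picture. *Psmb8*, an immunoproteasome subunit that replaces *Psmb5* in the barrel, had 45.78, 42.12 and 44.75 FPKM in Ctrl and 46.30, 54.11 and 53.66 FPKM in GA. GA replicate 1 was just above Ctrl and the other GA libraries well above, with a log2 fold change of 0.21 ± 0.06 (SE, limma adjusted p = 0.249) that was 0.28 and called without GA replicate 1 (adjusted p = 0.0323) and 0.15 with the length trend removed. *Psmb9* and *Psmb10*, the other immunoproteasome subunits, separated at 0.16 and 0.10 (limma adjusted p = 0.368 and 0.414), which were 0.08 and 0.02 with the length trend removed. *Pomp*, the maturation factor of the core, was at 130 ± 2.55 in Ctrl and 139 ± 4.05 FPKM under GA (SD, n = 3 each), and *Adrm1*, a ubiquitin receptor of the base, was at 104 ± 3.14 and 107 ± 5.79 FPKM with overlapping groups. Of 11 other proteasome proteins 6 had a higher GA mean (median log2 fold change 0.04), and of 17 genes of ubiquitin and substrate delivery 11 did (median 0.01), with 0 calls in either list.

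*Nfe2l1*, which encodes the factor that raises proteasome genes, had 24.77, 24.32 and 25.34 FPKM in Ctrl and 21.30, 24.33 and 25.15 FPKM in GA. GA replicate 1 was the lowest and the other GA libraries lay within Ctrl, with a log2 fold change of -0.07 (limma adjusted p = 0.678). In a list of 9 genes with *Nfe2l1*, *Nfe2l2* and genes that process or partner this factor, 2 had a positive log2 fold change. The median was -0.03 and 0 were called. That factor and its relative encoded by *Nfe2l2* bind antioxidant response elements, so the promoters were searched for the core of that element, TGACNNNGC on either strand, in windows of 300 bases from 250 before to 50 after each RefSeq start site (GRCm38.p6). A promoter was found for 38 of 46 members, leaving out the pair matched by symbol only, and 6 of the 38 (15.8%) held the element, against 17.0% of the tested genes with a promoter. They were *Psmb5*, *Psmb6*, *Psmc6*, *Psmd12*, *Psmd9* and *Psme4*, and the first 4, described above, are shown because they place the element in a catalytic, an ATPase and a lid gene. Each line runs in the direction of the gene and ends at or before its start site, and capitals mark the element, which in *Psmc6* and *Psmd12* reads on the other strand.
Psmb5, chr14:54618004-54618072, minus strand: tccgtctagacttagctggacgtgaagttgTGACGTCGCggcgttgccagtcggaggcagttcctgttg
Psmb6, chr11:70525318-70525356, plus strand: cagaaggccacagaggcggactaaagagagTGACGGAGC
Psmc6, chr14:45329574-45329635, plus strand: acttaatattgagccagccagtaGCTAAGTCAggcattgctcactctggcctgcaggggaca
Psmd12, chr11:107479278-107479319, plus strand: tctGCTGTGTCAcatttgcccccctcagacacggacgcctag

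The centre of the element lay 43 bases before the start site in *Psmb5*, 5 in *Psmb6*, 223 in *Psmc6* and 243 in *Psmd12*. The 6 tested members with the element had a median log2 fold change of 0.11 and the 31 without it 0.09. Their median lengths were 2069 and 1387 nt, and with the length trend removed the medians were 0.026 and 0.024. A match of these letters is not a shown binding site, and members without a match may carry other forms of the element or carry it elsewhere.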

How the data were processed

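Total RNA of 6 cell samples, 3 Ctrl and 3 GA by their titles, was sequenced as DNBSEQ libraries. The deposited values are FPKM, which the authors computed with RSEM by the study's methods. The submitters' processing notes name HISAT2 2.0.4, Bowtie2 2.2.5 and mm10. No source used here states the annotation, strand setting or read length. FPKM divides by length, so a library that favours short transcripts shows short genes higher. At the best of the fragment lengths and depths tried for each library, only 41.4% to 45.8% of low values lay within 0.15 of whole fragments. At any fixed setting 30.0% would by chance, and choosing the best setting raises that share. No reads could therefore be recovered for a count test.

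limma 3.58.1 (R 4.3.3, mean-variance trend, two-sided) was fitted on log2(FPKM + 1) of the 10912 genes averaging 1 FPKM or more, with Benjamini-Hochberg adjustment over all of them, and was tested on simulated data. Fold changes on this scale understate the change of low genes. Lengths and gene positions came from the GENCODE annotation of GRCm38, and promoters from RefSeq. The length trend was a loess fit (span 0.5) of each library on log2 length. Other settings tried were pseudocounts (0.5, 0.1), filters (none, 5 FPKM), 3 scalings, length trend removal, no variance trend, a replicate block and each library left out.

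Values per library were given for the catalytic beta genes, the 2 smallest p values in each of the alpha ring, beta ring, ATPase ring, base with lid, all chaperones and activators, and the 3 highest and 3 lowest means of tested members. The members, gene lists and tests were chosen with earlier results of these data known.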

Additional observations from a re-analysis of the deposited data

How the results depend on the processing

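Depth is unknown and 3 libraries a group limit the precision. The 0 calls among the members held under every alternative run, and the medians of the core, the regulatory particle and the core chaperones moved by less than the spread between libraries under the other pseudocounts, filters, median-of-ratios and TMM-type scaling and without the variance trend. Libraries with the same replicate number had correlations of -0.17, -0.13 and 0.0039 between their deviations from their group means. Pairing cannot be judged from these values, since GA replicate 1 lay far from the other libraries. With the replicate numbers as a block 42 members were still higher and 5 lower, the medians were as reported, and 0 members were called. At an unadjusted p under 0.05, 13 rather than 22 members were then higher, against 7.29% rather than 8.88% of all tested genes. The count of 22 was also 13 with median-of-ratios scaling (6.67% of all tested genes), 10 with TMM-type scaling (6.15%) and 6 rescaled (2.70%). It was 5 with the length trend removed (4.16%), 14 without the variance trend (7.41%) and 10 to 24 with 1 library left out (5.68% to 15.0%).

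The 5 members lower in GA became 16 with libraries rescaled, 18 with the length trend removed, 12 with the trend removed and GA replicate 1 left out, and 2 to 8 with 1 library left out (2 without GA replicate 1, 3 without Ctrl replicate 2 and 8 without GA replicate 3). The core median of 0.13 was 0.074 rescaled, 0.058 with the trend removed and 0.037 with the trend removed and GA replicate 1 left out. The regulatory particle median of 0.05 was -0.010 rescaled, 0.0017 with the trend removed and 0.035 to 0.075 with 1 library left out. The core chaperone median of 0.18 was 0.054 with the trend removed, 0.027 with GA replicate 1 also left out, and 0.11 to 0.22 with 1 library left out.

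Of 30 proteasome genes of the set with a fold change in the text, 11 changed sign under some setting. Rescaling gave *Psmd1* -0.031, *Psmd2* -0.041 and *Psmd4* -0.040. Removing the length trend gave *Psmb5* -0.0079, *Psmb6* -0.013, *Psmb4* -0.0046, *Psmd4* -0.058, *Psmg1* -0.0014 and *Psme2b* -0.044, and with GA replicate 1 also left out *Psmd4* -0.026, *Psmg1* -0.042, *Psmg4* -0.0093 and *Psmd8* -0.050. With 1 library left out *Psmd1* ran from -0.0091 to 0.064, *Psmd2* from -0.0021 to 0.057, *Psme2b* from -0.043 to 0.15 and *Psme3* from -0.033 to 0.019. The cause was not tested beyond these settings.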
